A study of Saccharomyces cerevisiae with 13 samples.

Results

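The strain lacking the leucine tRNA gene tL(GAG)G was compared with wild type by the mRNA signals of 2 deletion arrays and 3 wild-type arrays, out of 13 arrays in the whole series. The arrays were chosen by their labels, which read deletion of tL(GAG)G and wild type, and all 5446 protein-coding genes of Saccharomyces cerevisiae paired with a probe set were described. The deletion strain and its control were haploid cells of the MATα background Y5565, grown in rich medium and collected at mid log phase. In the deletion strain the tRNA gene had been replaced by a hygromycin B resistance cassette. Per the study's methods the wild-type control carried the same cassette at another place in the genome, upstream of the tRNA gene tL(CAA)L3, so the marker was common to both groups. The genotype given for Y5565 lacks CAN1, LYP1, URA3, the native LEU2 and the pheromone gene MF(ALPHA)1, with HIS3 and LEU2 placed behind mating-type promoters at CAN1 and MF(ALPHA)1. The labels call the arrays of a group biological replicates, and no source states whether they came from separate transformants. The other arrays, 2 each of strains deleted for tM(CAU), tR(CCU)J, tR(UCU)M2 and tH(GUG)G1, entered the fit. They are used below only to show where tL(GAG)G deletion differed from these strains or shared a pattern with them.

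A tRNA carries an amino acid to the ribosome and reads the codons that pair with its anticodon. Yeast decodes the CUN leucine codons with a pair of tRNA families, tL(GAG) and tL(UAG). The tL(GAG) family has a single gene, so its deletion leaves tL(UAG) as the only reader of these codons, and yeast lives without it. The leucine codons used most by yeast, UUG and UUA, are read by other tRNAs. A shortage of charged tRNA is known in yeast to activate the kinase GCN2, which raises translation of the transcription factor GCN4 and thereby transcription of amino acid synthesis genes. Misfolded protein is known to raise chaperone genes through HSF1 and proteasome genes through RPN4.

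The deletion is defined by the sequences at its edges, which the cassette carried for recombination at chromosome VII. Both are printed as the study's primer list gives them. They mark the edges of the removed stretch and do not give its sequence. The array has no probe set for the tRNA itself. The arrays thus hold no direct check of the deletion.
tL(GAG)G upstream homology: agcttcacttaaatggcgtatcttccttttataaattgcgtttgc
tL(GAG)G downstream homology: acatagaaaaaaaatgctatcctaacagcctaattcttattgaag

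The deposited signals had a 2% trimmed mean of 500.2 to 500.3 on every array, and their log2 was used throughout, so a difference of 1 is a factor of 2 in signal. The median gene signal was 556 and 539 on the deletion arrays and 536, 512 and 530 on the wild-type arrays. The array also carries probe sets for S. pombe genes, and the signal that 95% of these did not exceed was used as the background. It was 14.8 and 16.0 on the deletion arrays and 15 to 20.6 on the wild-type arrays, where 96.5 to 97.2% of the genes exceeded it. Over 3992 well measured genes, deletion replicate 1 correlated best with wild-type replicate 1 (r = 0.979) and deletion replicate 2 with wild-type replicate 3 (r = 0.978). The study's methods describe a wild-type array in the same batch for each strain without naming the batches, so differences within these pairs are given beside the main results.

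One observation on strain identity precedes the results. MF(ALPHA)1 (YPL187W), which encodes the alpha-factor pheromone and is listed as deleted in Y5565, had a log2 signal of 12.80 and 12.73 on the deletion arrays, against 2.54, 2.92 and 4.89 on the wild-type arrays. Both deletion arrays were far above background, and only 1 of the 3 wild-type arrays was above background. The same high signal was seen on the arrays of tM(CAU) deletion (12.72 and 12.77) and tR(CCU)J deletion (12.52 and 12.44), and a low one on those of tR(UCU)M2 deletion (3.10 and 3.30) and tH(GUG)G1 deletion (4.53 and 2.79). COS8 divided the strains in the same way. The tRNA deletion and a difference in strain lineage therefore cannot be told apart for any gene that follows this division. CAN1, LYP1 and URA3, which the genotype also lists as deleted, were below background on all 5 arrays, with log2 signals of CAN1 between -1.06 and 1.54 on the deletion arrays and between 0.23 and 1.71 on the wild-type arrays. LEU2 was far above background in both groups and is described with its pathway. The alpha-cell genes STE3 and MF(ALPHA)2 were high in both groups, with MF(ALPHA)2 at 12.48 and 12.50 on the deletion arrays and at 12.32, 12.92 and 12.03 on the wild-type arrays.

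The comparison asked which mRNAs changed when the tL(GAG) family was lost. At an adjusted p under 0.05 from limma, 2 genes were higher (0.0367% of those tested) and 1 was lower (0.0184%) in tL(GAG)G deletion than in wild type. At an unadjusted p under 0.05 there were 230 higher genes (4.22%) and 202 lower genes (3.71%), or 432 in all (7.93%). Both deletion arrays lay above all wild-type arrays for 854 genes (15.7%) and below all of them for 587 (10.8%). With the median of every array set to the same value these counts were 603 and 772, so the excess of higher genes turned into an excess of lower ones. The mean of tL(GAG)G deletion was the higher one for 3159 genes (58%). The median difference of all genes was 0.05 and the SD of the differences was 0.374. Differences beyond 1 in either direction were seen for 106 genes, of which 25 had a mean log2 signal over 8.

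**Figure D1:**
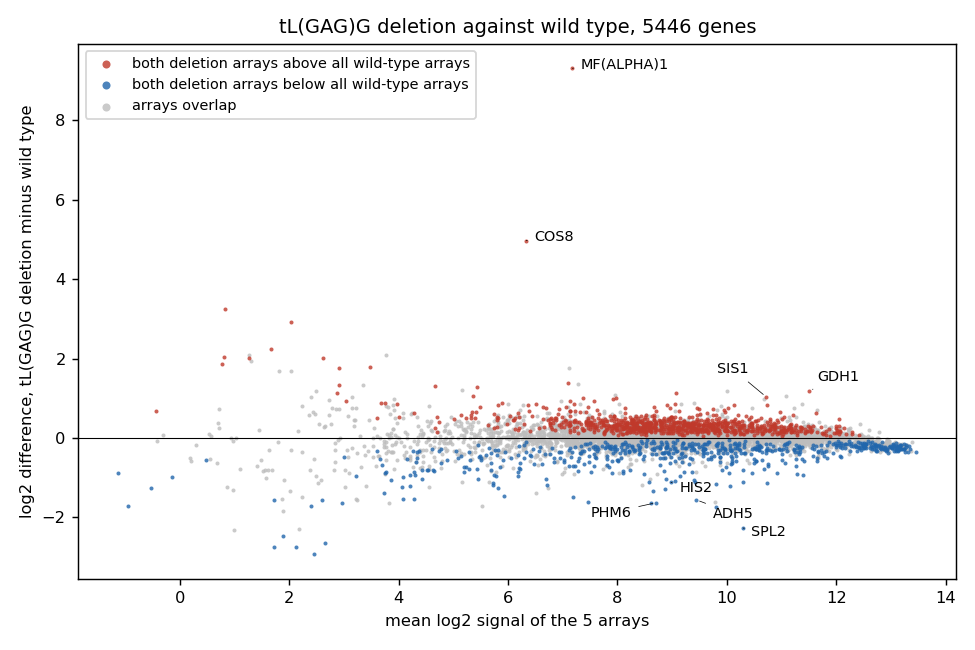
The log2 difference of tL(GAG)G deletion minus wild type (y axis) against the mean log2 signal of the 5 arrays (x axis) for 5446 genes, 1 point each. MF(ALPHA)1 at 9.32 and COS8 at 4.97 stand apart, and the differences of most well measured genes lie within 1 of zero.

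COS8 (YHL048W) belongs to the COS family of subtelomeric genes for membrane proteins. Its log2 signal was 9.42 and 9.21 on the deletion arrays, against 4.71, 4.21 and 4.11 on the wild-type arrays. The groups were far apart, and 1 of the wild-type arrays was below background. By limma COS8 rose by 4.97 (log2; standard error 0.36) with an adjusted p of 0.000276, which is a factor of 31.4, or 30.3 when signals under background were raised to it. MF(ALPHA)1 was higher by 9.32 (standard error 0.64, adjusted p = 0.000276), or by 8.35 with the same treatment of background. Of the 9 measured COS genes only COS8 lay above the wild-type arrays. COS6, COS4, COS9 and COS2 lay below them with differences of -0.47 to -0.11, none of which passed the test. The COS genes were thus 11.1% above and 44.4% below, where all genes were at 15.7% and 10.8%. Without deletion replicate 1 the number below was 7 (77.8%, against 20.2% of all genes), and near-identical copies of COS genes can share probes.

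HIS2 (YFR025C), the histidinol-phosphatase of histidine synthesis, was the 1 gene that fell. Its log2 signal was 8.48 and 8.13 on the deletion arrays and 9.49, 9.31 and 9.49 on the wild-type arrays, with no overlap. The mean was 8.31 ± 0.25 in tL(GAG)G deletion (SD, n = 2) and 9.43 ± 0.10 in wild type (SD, n = 3). By limma HIS2 fell by 1.12, with a standard error of 0.14 and an adjusted p of 0.0215. Within the paired arrays the differences were -1.0 and -1.35. The call was lost, with an adjusted p of up to 0.129, when tL(GAG)G deletion replicate 2 or any array of tM(CAU) deletion, tR(CCU)J deletion or wild type was left out. It was also lost with the replicate number as a block (adjusted p = 0.0986) and when only the 5 arrays were fitted (adjusted p = 0.371), while the difference stayed between -1.30 and -0.94 under all alternatives.

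Below the threshold, the glutamate dehydrogenase gene GDH1 (YOR375C), whose enzyme builds glutamate from ammonia, came nearest on the higher side. GDH1 had log2 signals of 12.28 and 12.16 on the deletion arrays and 11.37, 10.85 and 10.88 on the wild-type arrays, and the groups did not overlap. The difference was 1.18 (standard error 0.19, adjusted p = 0.0944), and 0.91 and 1.28 within the paired arrays. On the lower side YDR476C, a gene of unknown function, had 8.25 and 8.29 on the deletion arrays against 9.50, 9.14 and 9.23 on the wild-type arrays. Its difference was -1.02 (standard error 0.14, adjusted p = 0.0537).

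**Figure D2:**
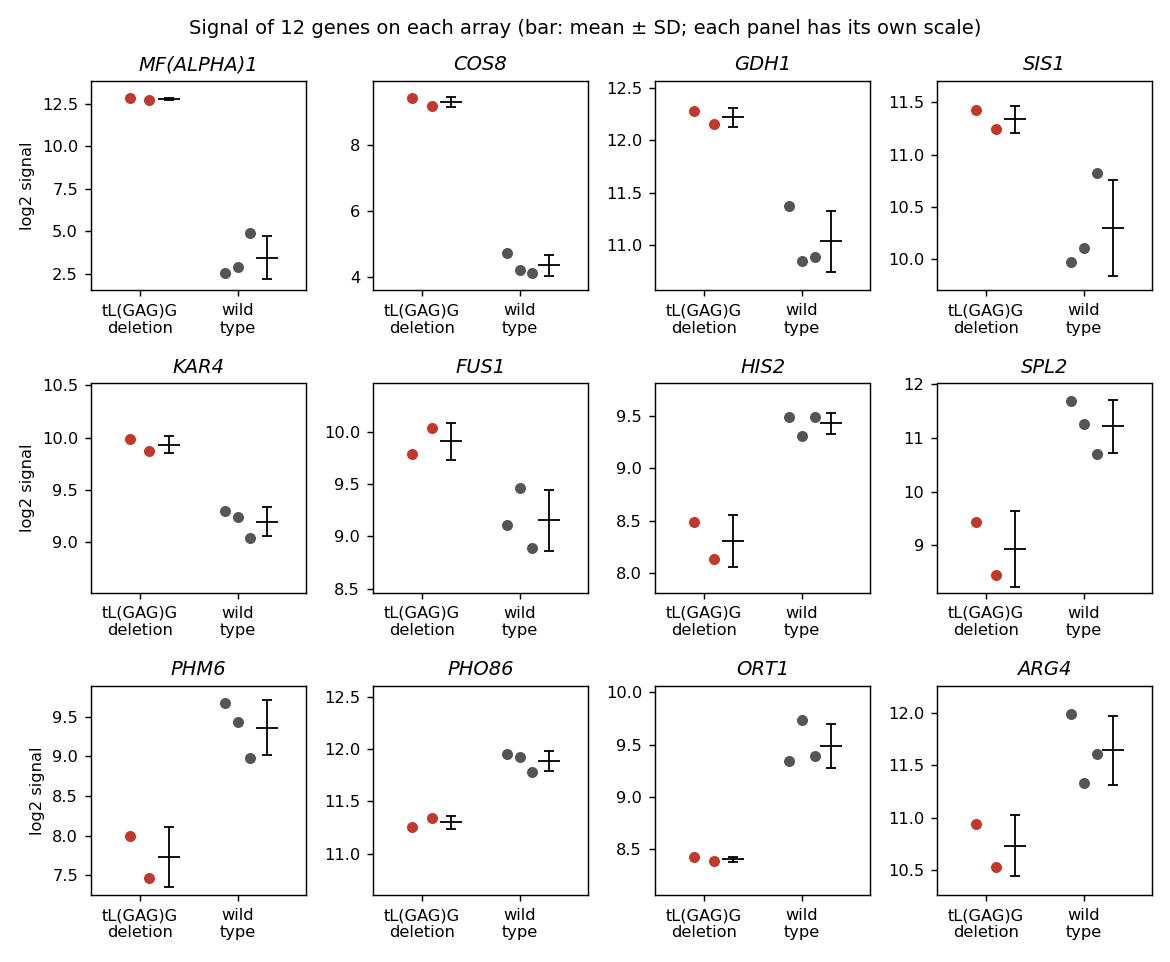
Log2 signal (y axis) of 12 genes on each of the 2 tL(GAG)G deletion arrays (red, left) and the 3 wild-type arrays (grey, right), with the mean and SD as a bar beside the points. No gene shown has overlapping groups, from MF(ALPHA)1 (12.80 and 12.73 against at most 4.89) to HIS2 (8.48 and 8.13 against at least 9.31).

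When the inferred array pairs were fitted as a block, 7 genes were higher and 8 lower at the same threshold. Beside COS8 and MF(ALPHA)1 the higher ones were GDH1, KAR4, ADE1, ADE2 and ADE17. The lower ones were HIS2, SPL2, PHM6, PRM9, YDR476C, ICY1, INA17 and HES1. The pairs were inferred from correlations between the arrays. KAR4, ADE1, ADE2, ADE17, SPL2, ICY1, INA17 and HES1 were called under no other alternative, so their call rests on that inference, whereas YDR476C, GDH1, PRM9 and PHM6 were also called under others.

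The largest positive differences after GDH1 are given next, among genes with a mean log2 signal over 8, no overlap and an unadjusted p under 0.05. SIS1 (YNL007C), an essential Hsp40 co-chaperone, had 11.43 and 11.25 on the deletion arrays and 9.98, 10.10 and 10.83 on the wild-type arrays. Its difference of 1.04 (standard error 0.29, adjusted p = 0.41) was 1.45 and 0.42 within the paired arrays, since wild-type replicate 3 was higher than the other 2. DSK2 (YMR276W), a shuttle that brings ubiquitinated proteins to the proteasome, had 10.86 and 10.41 on the deletion arrays against 10.23, 9.14 and 10.02 on the wild-type arrays. Others were IMD2, an IMP dehydrogenase, ADE2 of purine synthesis, MEF2, a mitochondrial elongation factor, VPS30 of vacuolar sorting and autophagy, GIC2, an effector of Cdc42, and FUS1 and KAR4 of mating, with differences of 0.73 to 0.83. None passed the test. IMD2 was read by a probe set that near-identical genes share.

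Negative differences of this kind reached further from zero. SPL2 (YHR136C), a regulator of phosphate transporters, had 9.43 and 8.44 on the deletion arrays, against 11.68, 11.26 and 10.69 on the wild-type arrays. Although its deletion arrays differed from each other by nearly 1, the groups did not overlap, with a difference of -2.27 (standard error 0.45, adjusted p = 0.156), and of -2.25 within each pair. ADH5 (YBR145W), an alcohol dehydrogenase, had 8.59 and 8.42 against 10.02, 10.76 and 9.41, a difference of -1.56 (adjusted p = 0.30 from limma). RTC2, a vacuolar transporter of basic amino acids, differed by -1.64, ICY1 by -1.12, the glycerol phosphatase gene GPP2 by -1.11 and the ATP synthase assembly factor INA17 by -1.10. These did not pass the test either.

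Gene groups are described below by how many members had no overlap between deletion and wild-type arrays, to be read against 15.7% higher and 10.8% lower among all genes. Leaving out 1 of the 5 arrays can only raise such a count, and the shares of all genes were then 25% higher and 20.2% lower without deletion replicate 1, 32.3% and 20.2% without deletion replicate 2, 28.7% and 19.8% without wild-type replicate 1, 21.2% and 16% without wild-type replicate 2, and 23.2% and 16.1% without wild-type replicate 3. They were 11.1% and 14.2% with medians set equal and 12.1% and 11.1% after quantile normalization. A count given below for one of these settings is to be read against the shares of that setting. No list member passed the test except COS8, MF(ALPHA)1 and HIS2.

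**Figure D3:**
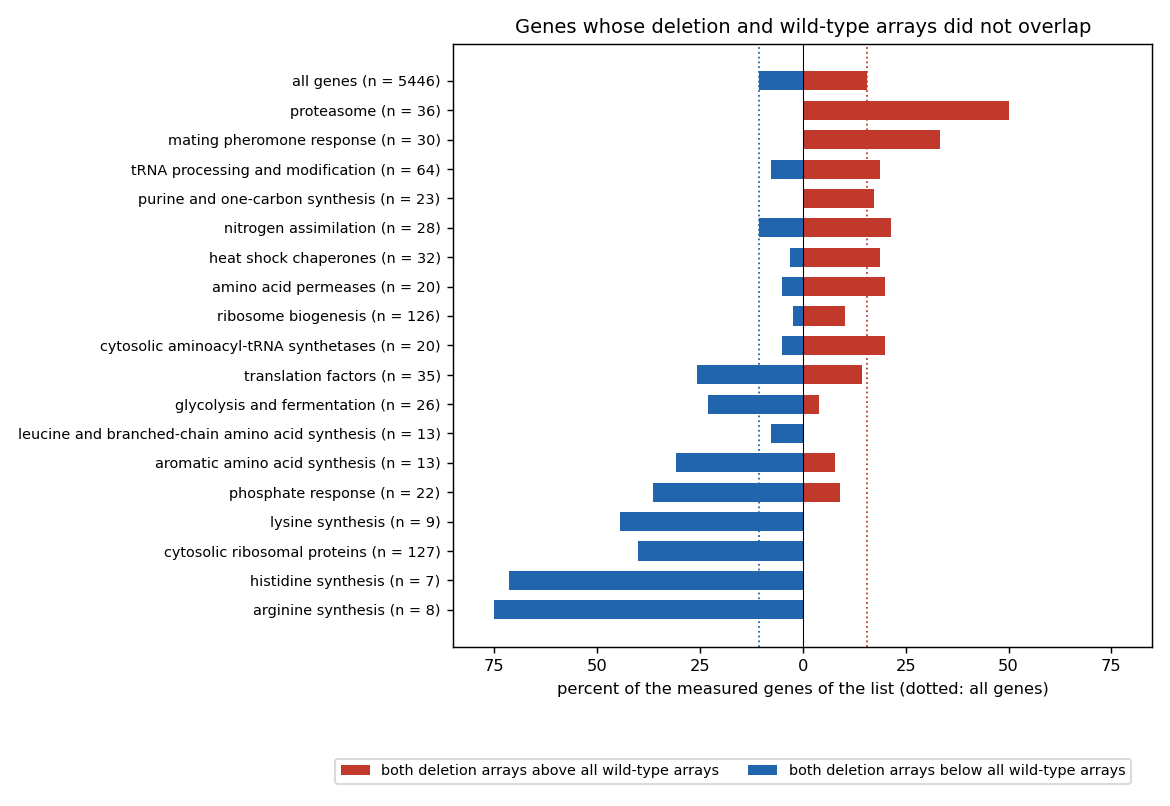
Percent of the measured genes of each list (x axis) whose tL(GAG)G deletion arrays both lay above (red, right) or below (blue, left) all wild-type arrays, with dotted lines at the shares of all 5446 genes. The proteasome list reaches 50% higher with none lower, and the arginine and histidine synthesis lists reach 75% and 71.4% lower with none higher.

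Of 13 genes of leucine and branched-chain amino acid synthesis, none lay above and 1 below the wild-type arrays, with a median difference of -0.06. The count below was 5 without wild-type replicate 3 and 3 without deletion replicate 1 or wild-type replicate 2. The 1 gene was LEU2 (YCL018W), isopropylmalate dehydrogenase, with log2 signals of 12.86 and 12.86 on the deletion arrays and 12.99, 13.30 and 13.06 on the wild-type arrays. The stated genotype has the native LEU2 deleted and a copy behind the promoter of MF(ALPHA)1, so the locus behind this signal is not known here. LEU2 had 12.75 and 12.71 in tM(CAU) deletion and 12.12 and 12.49 in tR(CCU)J deletion. It had 13.37 and 13.18 in tR(UCU)M2 deletion and 13.33 and 12.96 in tH(GUG)G1 deletion. LEU2 thus follows the division of strains seen for MF(ALPHA)1, so the tRNA deletion and strain lineage cannot be told apart for it. CDC60 (YPL160W), the cytosolic leucyl-tRNA synthetase that charges all leucine tRNAs, had 11.87 and 11.59 on the deletion arrays and 11.87, 11.73 and 11.65 on the wild-type arrays, so the groups overlapped. LEU4, which catalyses the first committed step of leucine synthesis, also overlapped, with a difference of -0.32 (standard error 0.23).

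Several other amino acid pathways lay lower in tL(GAG)G deletion, and also in tM(CAU) and tR(CCU)J deletion. For arginine synthesis the median difference from wild type was -0.63 in tM(CAU) deletion and -1.02 in tR(CCU)J deletion. It was 0.14 in tR(UCU)M2 deletion and -0.12 in tH(GUG)G1 deletion. The strains divide here as for MF(ALPHA)1, so the tRNA deletion and strain lineage cannot be told apart for this pattern. In arginine synthesis, 6 of 8 genes had both deletion arrays below all wild-type arrays and none above, with a median difference of -0.59. ORT1 (YOR130C), the mitochondrial ornithine transporter, had 8.42 and 8.39 on the deletion arrays against 9.34, 9.73 and 9.39 on the wild-type arrays. The groups were separate, with a difference of -1.08 (standard error 0.23, adjusted p = 0.218). ARG4 (YHR018C), argininosuccinate lyase, had 10.94 and 10.53 against 11.99, 11.33 and 11.61, a difference of -0.91 (standard error 0.24). The differences of ARG3, ARG7, ARG8 and ARG1, which act between acetylglutamate and argininosuccinate, ran from -0.89 to -0.49. ARG2, which starts the pathway, did not share this pattern, at 8.28 and 8.39 on the deletion arrays and 8.55, 7.89 and 8.40 on the wild-type arrays.

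In histidine synthesis, 5 of 7 genes lay below the wild-type arrays and none above, with a median of -0.36. Beside HIS2 these were HIS5 at -0.59, HIS3 at -0.36, HIS1 at -0.17 and HIS6 at -0.12. HIS3 also has a reporter copy in this background. In lysine synthesis 4 of 9 genes lay below and none above (median -0.15), with 7 below without deletion replicate 1, and in aromatic amino acid synthesis 4 of 13 lay below and 1 above (median -0.07). TRP4 (YDR354W), anthranilate phosphoribosyltransferase, had 9.41 and 9.59 on the deletion arrays against 10.82, 10.15 and 10.20 on the wild-type arrays. Its difference was -0.89 (standard error 0.19, adjusted p = 0.218). The histidine list median against wild type was -0.24 in tM(CAU), -0.43 in tR(CCU)J, 0.08 in tR(UCU)M2 and -0.04 in tH(GUG)G1 deletion. In the same order the lysine list was at -0.25, -0.55, 0.07 and 0.01. The aromatic list was at -0.09, -0.35, 0.05 and 0.06.

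The regulators of these pathways differed less. GCN4 (YEL009C), the activator of amino acid synthesis genes, had 12.45 and 12.46 on the deletion arrays and 12.60, 12.65 and 12.60 on the wild-type arrays. The groups did not overlap, but the difference was -0.16 (standard error 0.11, adjusted p = 0.68). GCN2, the kinase that senses uncharged tRNA, had 8.66 and 8.68 against 8.42, 8.30 and 8.39, a difference of 0.30 (standard error 0.17, adjusted p = 0.67). GCN4 is known to be controlled mainly at translation, which these arrays do not measure. Of 20 amino acid permease genes, 4 lay above and 1 below the wild-type arrays, with 8 above and 3 below without deletion replicate 2 and 6 above and 4 below without wild-type replicate 2. AGP1 (YCL025C), a permease of broad range, had 9.85 and 9.27 on the deletion arrays against 9.02, 8.70 and 8.38 on the wild-type arrays, whereas the leucine permease gene BAP2 had 10.21 and 10.20 against 10.91, 10.60 and 10.33. Neither passed the test, with adjusted p = 0.63 for AGP1 and 0.64 for BAP2 from limma. By mean AGP1 also differed from wild type by 0.53 in tM(CAU) and 0.98 in tR(CCU)J deletion. It differed by -0.40 in tR(UCU)M2 and -0.33 in tH(GUG)G1 deletion, again the division seen for MF(ALPHA)1.

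Of 28 genes of nitrogen assimilation, 6 lay above and 3 below, with the largest difference in GDH1. Without deletion replicate 2 the count was 13 above and 6 below, and without deletion replicate 1 it was 8 above and 7 below. These are 46.4% above and 21.4% below without deletion replicate 2, where all genes were at 32.3% and 20.2%, and 28.6% above and 25% below without deletion replicate 1, where all genes were at 25% and 20.2%. MEP1, an ammonium permease, had 8.63 and 8.53 on the deletion arrays and 7.62, 6.91 and 8.18 on the wild-type arrays, where the spread was wide. By mean MEP1 also differed from wild type by 0.89 in tM(CAU) and 0.86 in tR(CCU)J deletion. It differed by -0.08 in tR(UCU)M2 and -0.21 in tH(GUG)G1 deletion, so by mean it follows the division of strains seen for MF(ALPHA)1. The list median against wild type was 0.28 in tM(CAU), 0.67 in tR(CCU)J, -0.08 in tR(UCU)M2 and -0.05 in tH(GUG)G1 deletion. The nitrogen list and GDH1 divide the strains likewise, so the tRNA deletion and strain lineage cannot be told apart for them. In purine and one-carbon synthesis 4 of 23 genes lay above and none below, namely IMD2, ADE2, ADE1 and ADE4. Without deletion replicate 2 the count was 12 above (52.2%, against 32.3% of all genes) and 2 below, and without wild-type replicate 1 or 2 it was 8 above and 1 below. ADE4 (YMR300C), which catalyses the first committed step of purine synthesis, had 10.72 and 10.35 against 10.06, 10.08 and 9.78, a difference of 0.57 (standard error 0.21, adjusted p = 0.59).

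The proteasome list was taken up because the study had chosen it on these arrays, so its direction is not independent evidence. The study found it by setting a group with tL(GAG)G deletion against tR(UCU)M2 and tH(GUG)G1 deletion. Its authors also report RT-qPCR of some of these genes. Of 36 proteasome genes, 18 lay above all wild-type arrays and none below, with a median difference of 0.18. RPT5 (YOR117W), an ATPase of the regulatory particle, had 11.03 and 11.05 on the deletion arrays and 10.62, 10.59 and 10.65 on the wild-type arrays. Replicates of RPT5 differed by less than 0.1 in each group, and the difference was 0.42 (standard error 0.12, adjusted p = 0.40). RPT3, another of these ATPases, had 11.15 and 11.03 against 10.83, 10.72 and 10.61. RPN4 (YDL020C), the transcription factor of proteasome genes, had 10.28 and 10.20 on the deletion arrays against 9.96, 9.86 and 10.06 on the wild-type arrays, a difference of 0.28 (standard error 0.12). The list median relative to the wild-type mean of each gene was 0.23 and 0.15 on the deletion arrays and -0.04, -0.04 and 0.10 on the wild-type arrays. Under the same centring as above, 14 of the 36 genes lay above and 1 below. Against wild type the list median was 0.04 in tM(CAU) and 0.35 in tR(CCU)J deletion. It was -0.10 in tR(UCU)M2 and -0.06 in tH(GUG)G1 deletion. The medians of all genes were 0.07 in tM(CAU), 0.17 in tR(CCU)J, -0.03 in tR(UCU)M2 and -0.007 in tH(GUG)G1 deletion. In tM(CAU) deletion the proteasome list thus did not exceed the median of all genes.

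Heat shock chaperones varied more among wild-type arrays than between the groups. Of 32 genes 6 lay above and 1 below, with a median of 0.24, but the wild-type arrays themselves ran from -0.29 to 0.37 by list median and the deletion arrays were at 0.28 and 0.15. The list median against wild type was 0.23 in tM(CAU) and 0.56 in tR(CCU)J deletion. It was -0.15 in tR(UCU)M2 and -0.10 in tH(GUG)G1 deletion, the division seen for MF(ALPHA)1. For the chaperone list the tRNA deletion and strain lineage therefore cannot be told apart. The count above was 18 without wild-type replicate 3 and 13 without deletion replicate 2, and the count below was 6 without wild-type replicate 2 and 4 without wild-type replicate 1 or deletion replicate 2. Beside SIS1, those above were HSP42, CUR1, SSA3, HSF1 and CDC37. CUR1, a factor that sorts misfolded proteins into the nucleus, had 8.16 and 8.09 on the deletion arrays and 6.44, 7.13 and 7.99 on the wild-type arrays. HSP104, the disaggregase, overlapped, at 10.40 and 10.14 against 9.27, 9.39 and 10.38. In the endoplasmic reticulum KAR2, the main chaperone there, overlapped too, at 12.42 and 12.38 against 12.38, 11.62 and 12.47. HAC1, the transcription factor of the unfolded protein response, had 11.54 and 11.70 on the deletion arrays against 11.86, 12.09 and 11.86 on the wild-type arrays, a difference of -0.32 (standard error 0.15, adjusted p = 0.63). HAC1 is known to be controlled by splicing, which was not analysed here.

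**Figure D4:**
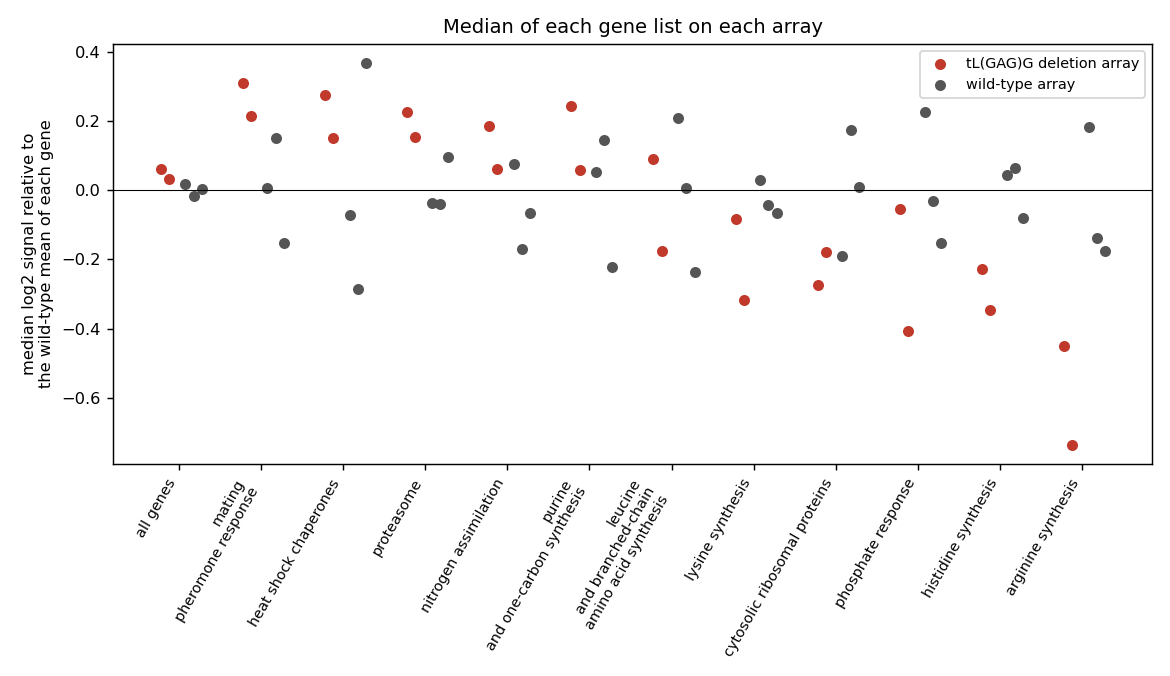
Median log2 signal of each gene list relative to the wild-type mean of each of its genes (y axis) on each tL(GAG)G deletion array (red) and wild-type array (grey). The arginine list lies at -0.45 and -0.74 on the deletion arrays, below all wild-type arrays, whereas the heat shock and ribosomal protein lists overlap between groups.

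Mating genes lay on the higher side too, as they did by list median in tM(CAU), tR(UCU)M2 and tH(GUG)G1 deletion. Of 30 genes of the mating pheromone response, 10 lay above the wild-type arrays and none below, with a median of 0.24, and MF(ALPHA)1 is 1 of the 10. The count above was 17 (56.7%) without deletion replicate 2 or wild-type replicate 2, where the shares of all genes were 32.3% and 21.2%. KAR4 (YCL055W), a transcription factor for nuclear fusion, had 9.99 and 9.88 on the deletion arrays against 9.30, 9.25 and 9.04 on the wild-type arrays. The groups were well separated, with a difference of 0.73 (standard error 0.15, adjusted p = 0.18) and of 0.69 and 0.83 within the pairs. FUS1 (YCL027W), needed for cell fusion, had 9.78 and 10.03 against 9.11, 9.46 and 8.89. PRM1 (YNL279W), a membrane protein of cell fusion, had 7.03 and 7.0 against 6.11, 6.50 and 5.90, a difference of 0.85 (standard error 0.23). The kinase gene FUS3, the G protein gene GPA1, the cell cycle inhibitor FAR1, the RGS protein gene SST2 and STE50 differed by 0.28 to 0.53. Of 7 a-cell markers 1, ASG7, lay above the wild-type arrays, with log2 signals of 4.57 and 4.52 on the deletion arrays and 2.28, 1.95 and 4.05 on the wild-type arrays, near background. MFA1, which encodes a-factor, overlapped at 6.18 and 6.32 against 5.22, 6.37 and 5.85. The median of the mating list against wild type was 0.40 in tM(CAU) deletion and -0.10 in tR(CCU)J deletion, where MF(ALPHA)1 was high. It was 0.16 in tR(UCU)M2 deletion and 0.22 in tH(GUG)G1 deletion, where MF(ALPHA)1 was low. In the same order PRM1 differed from wild type by 0.98, -0.68, 0.93 and 0.90. The part of MF(ALPHA)1 in the signals of the other mating genes was not tested.

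Of 22 phosphate response genes, 8 lay below the wild-type arrays and 2 above, with a median of -0.23, and 15 lay below without deletion replicate 1. PHM6 (YDR281C), a phosphate-regulated gene of unknown function, had 7.99 and 7.46 on the deletion arrays and 9.67, 9.43 and 8.98 on the wild-type arrays. The gap between the groups was wider than the spread in either, and the difference was -1.63 (standard error 0.29, adjusted p = 0.114), with -1.67 and -1.52 within the pairs. PHO86 (YJL117W), which helps the phosphate transporter PHO84 leave the endoplasmic reticulum, had 11.25 and 11.34 against 11.95, 11.92 and 11.78, a difference of -0.59 (standard error 0.11, adjusted p = 0.114). The acid phosphatase genes PHO5 and PHO11 differed by -1.73 and -1.14, and PHO11 was read by a shared probe set. PHO84 itself, the high-affinity transporter, overlapped, with 12.20 and 11.89 on the deletion arrays and 12.57, 12.30 and 12.19 on the wild-type arrays. SPL2, PHM6 and PHO86 were also low on the arrays of tR(CCU)J deletion, but not on those of the other strains. In tR(CCU)J deletion PHM6 had 8.02 and 7.04, and PHO86 had 11.44 and 11.36. PHO84 differed from wild type by -0.49 in tR(CCU)J deletion and by -0.31 in tL(GAG)G deletion.

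The translation apparatus differed by small amounts. Of 127 cytosolic ribosomal protein genes 126 had a lower mean in tL(GAG)G deletion, and 51 lay below all wild-type arrays with none above. The median was -0.22 and the differences ran from -0.49 to 0.01. By list median the deletion arrays were at -0.27 and -0.18 and the wild-type arrays at -0.19, 0.18 and 0.01, so the groups overlapped. Against wild type the list median was also lower in tM(CAU) deletion (-0.23) and tR(CCU)J deletion (-0.41). It was 0.15 in tR(UCU)M2 deletion and -0.01 in tH(GUG)G1 deletion. The ribosomal protein list divides the strains as MF(ALPHA)1 does, so the tRNA deletion and strain lineage cannot be told apart for it. The 51 genes became 106 without deletion replicate 2 and 114 without wild-type replicate 1, and 12, with 2 above, after quantile normalization. RPS9A, with the difference farthest from zero, had 11.68 and 11.92 on the deletion arrays against 12.12, 12.21 and 12.52 on the wild-type arrays. Of 35 translation factor genes 9 lay below and 5 above (median 0.03). After quantile normalization 2 lay below and 8 above, so the balance of these genes depends on the scaling, and without wild-type replicate 1 it was 12 below and 15 above. ANB1, the form of translation factor eIF5A known to be made at low oxygen, had the lowest difference of these, at -1.07.

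Genes that act on tRNA differed little by median. Of 64 genes of tRNA processing and modification 12 lay above and 5 below (median 0.09), of 27 genes of RNA polymerase III and its factors 4 above and 5 below (median 0.05), and of 20 cytosolic aminoacyl-tRNA synthetase genes 4 above and 1 below (median 0.05). With medians set equal the tRNA processing count was 6 above and 8 below and the synthetase count 1 above and 4 below, whereas after quantile normalization the synthetase count was 7 above and none below, so neither list has a settled direction. Without wild-type replicate 1 the tRNA processing count was 32 above and 7 below, and without deletion replicate 2 the RNA polymerase III count was 9 above and 11 below. ELP3 (YPL086C), the catalytic subunit of the Elongator complex that modifies wobble uridines, had the largest positive difference of the tRNA modification genes. It had 10.51 and 10.41 on the deletion arrays against 10.28, 9.91 and 9.98 on the wild-type arrays, a difference of 0.40 (standard error 0.18, adjusted p = 0.63). TRM9, a methyltransferase of the same uridines, overlapped at 10.04 and 10.21 against 10.05, 9.69 and 9.79.

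The genes beside the deleted locus were examined because a tRNA gene can affect its neighbours. VOA1, an assembly factor of the vacuolar ATPase and the first gene on one side, had 11.73 and 11.70 on the deletion arrays and 11.89, 12.07 and 11.75 on the wild-type arrays. CLB1, a mitotic cyclin gene and the first on the other side, had 9.65 and 9.26 against 9.99, 10.83 and 9.62, so its groups overlapped. VMA21, SRB5 and CLB6 also overlapped. YGR109W-B, an open reading frame of a Ty element and the third on the side of CLB1, had 8.11 and 7.95 on the deletion arrays against 7.78, 7.55 and 6.93 on the wild-type arrays. Its difference was 0.61 (standard error 0.25, adjusted p = 0.60), and elements of this kind can share sequence with copies elsewhere. No neighbour passed the test.

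To find where tL(GAG)G deletion differed from the other deletion strains, its arrays were set against those of tM(CAU) and tR(CCU)J deletion, and against those of tR(UCU)M2 and tH(GUG)G1 deletion. These comparisons use the same tL(GAG)G deletion arrays as the one with wild type. Against tM(CAU) and tR(CCU)J deletion, 5 genes (0.0918%) were lower and 0 higher at an adjusted p under 0.05 from limma, with 441 lower (8.1%) and 120 higher (2.2%) at an unadjusted p under 0.05. Against tR(UCU)M2 and tH(GUG)G1 deletion, 9 genes (0.165%) were lower and 3 (0.0551%) higher, with 292 lower (5.36%) and 476 higher (8.74%) at an unadjusted p under 0.05. HIS2, YDR476C, JHD2, PRM9 and YIL046W-A were lower in both. Single arrays decided these counts, which ran from 0 to 24 and from 0 to 8 lower genes when each of the 13 arrays was left out in turn. Without tL(GAG)G deletion replicate 2 the 5 lower genes became 0 and the 9 became 1, without tR(CCU)J deletion replicate 2 the 5 became 24, and without tR(UCU)M2 deletion replicate 1 or tH(GUG)G1 deletion replicate 2 the 9 became 0. HIS2 differed by -1.35 (standard error 0.13, adjusted p = 0.005 from limma) from tM(CAU) and tR(CCU)J deletion, and by -1.07 (adjusted p = 0.020) from tR(UCU)M2 and tH(GUG)G1 deletion. Its signals on the 8 arrays of the other deletion strains ran from 9.28 to 9.83, all above both tL(GAG)G deletion arrays. JHD2 (YJR119C), a histone demethylase, had 6.65 and 6.74 in tL(GAG)G deletion, against 7.42 and 7.33 in tM(CAU) deletion and 8.05 and 8.05 in tR(CCU)J deletion. YIL046W-A was not above background on either tL(GAG)G deletion array.

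PRM9 (YAR031W), a pheromone-regulated membrane protein gene of the DUP240 family, had 6.57 and 6.02 in tL(GAG)G deletion, against 7.76, 8.01 and 7.57 in wild type, a difference of -1.49 (standard error 0.26, adjusted p = 0.11). Its family members PRM8 and MST27, chosen after their values were seen, also lay below wild type, with differences of -0.61 and -0.64, whereas MST28, read by a shared probe set, overlapped at 8.41 and 8.66 against 8.25, 8.52 and 8.43. GDH1 was higher than in tR(UCU)M2 and tH(GUG)G1 deletion by 1.30 (standard error 0.18, adjusted p = 0.031). Against tM(CAU) and tR(CCU)J deletion GDH1 differed by 0.33 (adjusted p = 0.57), COS8 by 0.53 (adjusted p = 0.64) and MF(ALPHA)1 by 0.15 (adjusted p = 0.96).

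**Figure D5:**
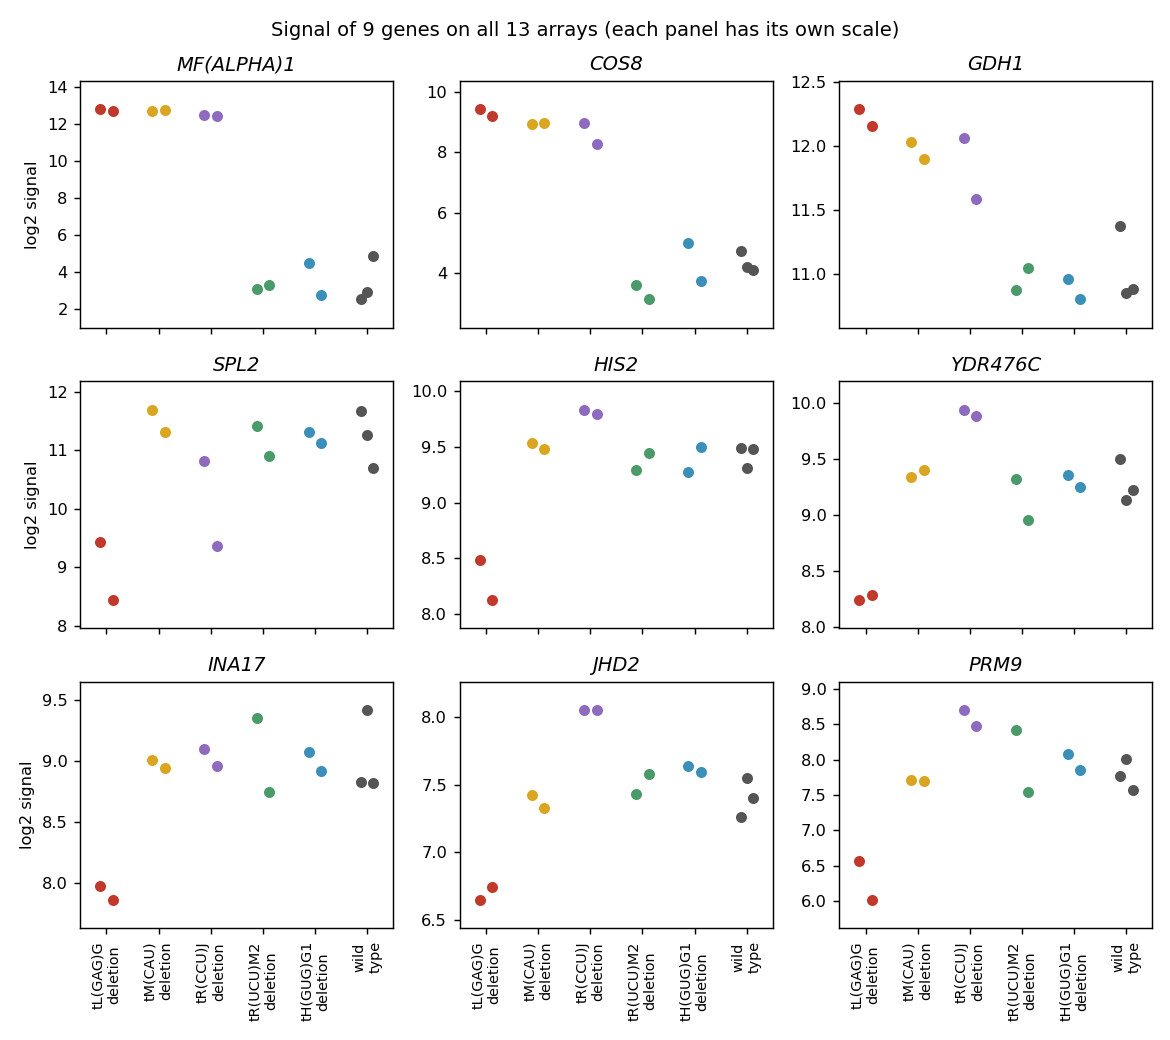
Log2 signal (y axis) of 9 genes on all 13 arrays by strain, with tL(GAG)G deletion at the left and wild type at the right (x axis). MF(ALPHA)1, COS8 and GDH1 are also high in tM(CAU) and tR(CCU)J deletion, whereas HIS2, YDR476C, INA17, JHD2 and PRM9 are lowest on the 2 tL(GAG)G deletion arrays.

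Both tL(GAG)G deletion arrays lay below all 11 other arrays for 157 genes (2.88%) and above them for 119 (2.19%). Of these, 105 lower and 106 higher genes had a mean log2 signal over 8. Among the lower ones the gap to the nearest other array was widest for HIS2 (0.79), INA17 (0.77), YDR476C (0.67) and TVP38, a Golgi membrane protein gene (0.56). TRP4 followed with 0.48, YGL159W with 0.45 and BET2, a subunit of the geranylgeranyl transferase for Rab proteins, with 0.41. Gaps on the higher side were narrower, at 0.30 for SPT5, a transcription elongation factor, 0.22 for RNQ1, a prion protein, 0.21 for the ubiquitin protease gene UBP2 and 0.20 for both SEG1, an eisosome protein, and RPN6, a lid subunit of the proteasome. TVP38, BET2, RNQ1, UBP2 and SEG1 were chosen by these gaps after their values were seen.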

How the data were processed

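Total RNA of each culture was hybridised to 1 Affymetrix Yeast 2.0 array. The deposited values are linear intensity values, 1 per probe set, which the authors background-adjusted with RMA and normalized between arrays per the methods, or processed with GCRMA per the labels. Neither gives equal trimmed means with unequal quantiles, as found here, so the scaling stays unknown, and the values were used as deposited. Of 10928 probe sets, 5495 are paired with 1 protein-coding gene in the platform annotation, giving 5446 genes. For the 47 genes with several probe sets the brightest was used, and 112 genes were read by probe sets of a type shared between similar sequences. No probe set was flagged or filtered.

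Log2 signals, with no offset, were fitted with limma 3.58.1 in R 4.3.3 as 1 mean per strain over all 13 arrays, with Benjamini-Hochberg adjustment over 5446 genes. The spread is estimated from all strains, so a group of 2 arrays is assumed to vary like the others, and the number of arrays limits the precision. A gene was named if it was called, if it was among the 12 largest differences in each direction without overlap at an unadjusted p under 0.05 and a mean log2 signal over 8, if it was a leading member of a list, a neighbour of the locus or called against other strains, or if it belonged to the leucine pathway or the strain genotype. Others are marked or serve as fixed list members. The members and the gene lists were chosen with earlier results of these data known. Gene names come from the platform annotation and RefSeq. Alternatives changed the blocks (replicate number, or array pairs inferred from correlation), the arrays in the fit (only these 5, or each array left out), the scaling (median or quantile), the probe sets (averaged, or dim ones removed) and limma's prior (trended and robust). Codon content was not analysed here.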

Additional observations from a re-analysis of the deposited data

Results flagged for a closer look

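Differences between strains that passed limma's test at an adjusted p under 0.05 are listed here, each as tL(GAG)G deletion minus the mean of the other strains on the log2 scale. Against tM(CAU) and tR(CCU)J deletion the differences were -1.85 for PRM9, -1.38 for YDR476C, -1.35 for HIS2, -1.94 for YIL046W-A and -1.02 for JHD2. Against tR(UCU)M2 and tH(GUG)G1 deletion the lower genes were PRM9 at -1.68, YDR476C at -0.954, HIS2 at -1.07, YIL046W-A at -2.02 and JHD2 at -0.864. The other lower genes of that comparison were PHM6 at -1.89, YGL159W at -0.699, BIO4, dethiobiotin synthetase, at -1.21, and YLR030W at -1.35. YIL046W-A and YLR030W were not above background on either tL(GAG)G deletion array, so the size of their differences is uncertain. The higher genes were MF(ALPHA)1 at 9.34, COS8 at 5.45 and GDH1 at 1.30. MF(ALPHA)1 was above background on 1 and COS8 on 2 of the 4 arrays of tR(UCU)M2 and tH(GUG)G1 deletion, so the size of these differences is uncertain, and with signals under background raised to it they were 8.72 and 5.14. Groups of 2 and 3 arrays are too small for a test of single outlying arrays.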

How the results depend on the processing

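COS8 and MF(ALPHA)1 passed the threshold under all 21 alternatives, and HIS2 under 11 of them. A replicate block gave 2 higher genes and 0 lower, and same-numbered arrays of tL(GAG)G deletion and wild type correlated in their deviations with r = 0.44 and 0.08, and those of tL(GAG)G deletion and the other deletion strains with 0.12 to 0.56. No source says that a number marks a shared batch, and 1 of the pairs with wild type was under 0.1, so the numbers were not taken as a pairing. The inferred array batch as a block gave 7 higher and 8 lower genes, the fit of only the 5 arrays 2 and 0, median centring, quantile normalization and leaving out dim genes 2 and 2 each, and the trended and robust prior 3 and 4.
Leaving out 1 array gave 2 to 3 higher and 0 to 3 lower genes, with 0 lower without any array of wild type, tM(CAU) or tR(CCU)J deletion.
Against tM(CAU) and tR(CCU)J deletion it gave 0 to 1 higher and 0 to 24 lower genes, with 24 without tR(CCU)J deletion replicate 2 and 0 without tL(GAG)G deletion replicate 2. Against tR(UCU)M2 and tH(GUG)G1 deletion it gave 2 to 5 higher and 0 to 8 lower.
Genes without overlap numbered 1156 to 1761 higher and 872 to 1100 lower when 1 of the 5 arrays was left out, since fewer arrays overlap less often. Leaving out dim genes removed genes from the tests. The cause of the other changes was not tested. The medians of 15 of the 42 gene lists changed sign under at least 1 alternative, the arginine, histidine, lysine, proteasome, mating, phosphate and ribosomal protein lists not among them. Of 14 genes given without a difference, 7 changed sign under at least 1 alternative.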
